A study of Rattus norvegicus with 10 samples.

Results

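The genes described here encode the carriers of the inner mitochondrial membrane and their close relatives. They comprise the Slc25 family, the uncoupling proteins Ucp1 to Ucp3, the mitochondrial pyruvate carrier subunits Mpc1 and Mpc2, the carrier homologs Mtch1 and Mtch2 of the outer membrane, and the sideroflexins Sfxn1 to Sfxn5. Members were taken by gene symbol from the array annotation, with no measured value used in the choice. The annotation named 50 of them, each on 1 probeset, among 15037 named genes on 23188 probesets tested. The rat RefSeq gene table (GRCr8) holds 61 genes with such names, and the other 11 are not analysed here. Slc25a12 and Slc25a13 are not among the 50, so nothing here describes them.

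The study compared 2 groups of 5 arrays. ShBNIP3 cells were transduced with a lentivirus carrying a short hairpin against Bnip3, and ShCtrl cells with a lentivirus carrying a control short hairpin in the pLKO.1 vector. All were cells isolated from the nucleus pulposus, the gelatinous core of the intervertebral disc, of male Sprague Dawley rats of 300 g, given as 3 to 4 months old, and RNA was taken 4 days after transduction. Arrays are called by their title numbers, 6 to 10 for ShBNIP3 and 1 to 5 for ShCtrl. The labels leave unsaid whether the 5 arrays of 1 group are 5 cultures, and p-values therefore describe how these arrays vary, which may be technical variation.

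The inner mitochondrial membrane is tight to ions and metabolites, and most traffic between cytosol and matrix passes through these proteins. An Slc25 carrier is built from repeats of a domain with paired helices, and commonly exchanges one substrate for another. Through them the matrix receives ADP, phosphate, pyruvate, amino acids and cofactors such as NAD+, and releases ATP, citrate and aspartate. Nucleus pulposus cells live with little oxygen and depend strongly on glycolysis, and BNIP3 sits in the outer membrane of mitochondria and recruits the autophagy machinery to them. The pyruvate carrier and the sideroflexins are unrelated to Slc25 in sequence and do similar work.

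Bnip3 itself was low on all 5 ShBNIP3 arrays, with no overlap between the groups. It averaged 11.4 ± 0.77 in ShBNIP3 and 14.6 ± 0.79 in ShCtrl (SD, n = 5 each, log2 expression), a log2 difference of -3.21 (SE 0.40, limma adjusted p = 0.00020), and an exact permutation test (two-sided) gave p = 0.0079, the lowest possible with 5 against 5 arrays. The highest ShBNIP3 value, 12.68, was on array 10, and the highest ShCtrl value, 15.97, on array 4. These arrays also correlated least with the rest of their groups (mean Pearson r of 0.986 and 0.983, against 0.992 for each of the other 8). Of 12 measured nucleus pulposus markers, 6 (Krt8, Krt18, Krt19, Tbxt, Shh and Noto) were at background on all 10 arrays. Acan, Col2a1, Car3 and Basp1 were above it on all 10, as were the collagens Col1a1 and Col1a2 of the annulus fibrosus and fibroblast list. All 6 endothelial, 5 skeletal muscle, 4 adipocyte and 4 erythroid markers measured were at background on all 10 arrays, and so were 6 of 8 macrophage and leukocyte markers, Ptprc and Csf1r among them. The summed level of the nucleus pulposus markers lay between 12.3 and 13.8 on ShBNIP3 arrays and between 13.5 and 14.6 on ShCtrl arrays (log2 of the sum), and 3 of the 12 fell and 0 rose. For the macrophage and leukocyte list it lay between 11.9 and 13.2 on ShBNIP3 arrays and between 11.0 and 11.7 on ShCtrl arrays, with Cd68, Cd14 and Cd53 (the last within background) higher. For the annulus fibrosus and fibroblast list it lay between 19.1 and 19.3 on ShBNIP3 arrays and at 19.6 on all ShCtrl arrays, and 3 of 6 fell. Such sums mostly follow the brightest genes of a list. These were Acan (log2 -0.90, limma adjusted p = 0.190) for nucleus pulposus, Cd14 for macrophage and leukocyte, and Col1a1 and Col1a2 for annulus fibrosus and fibroblast. In that last list Fmod fell 5.18-fold, while Pdgfra was higher without passing (log2 0.52, limma adjusted p = 0.225). The part of these shifts in the results that follow was not tested.

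Knockdown of Bnip3 went with a change in a small number of carriers. Of the 50 members, 1 rose and 5 fell at a limma adjusted p under 0.05 over all probesets, which is 12% of them, while 15.5% of all probesets tested passed (7.61% up and 7.87% down). Among the probesets above background on at least 1 array, 28.1% passed. The 6 calls lay among the 34 carriers above background on at least 1 array, and their share is not read as a difference from the rest of the array. The 5 that fell were the NAD+ carrier Slc25a51, the sideroflexin Sfxn3, the uncoupling protein relative Slc25a30, the dicarboxylate carrier Slc25a10 and the glutamate carrier Slc25a22, and the 1 that rose was Mtch2. The median log2 difference was 0.04 over the 50 members and 0.02 over all probesets tested. Above background on at least 1 array, it was -0.03 over the 34 members and 0.02 over 11761 probesets. At an unadjusted p under 0.05, 4 members were higher and 7 lower, where 26.7% of all probesets differed in either direction. Only Slc25a51 and Sfxn3 also passed the 2-fold change named in the labels, 2 of 50, where 4.18% of all probesets did. In RNA from whole cultures, fewer cells that express a gene and less RNA per cell cannot be told apart.

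**Figure D1:**
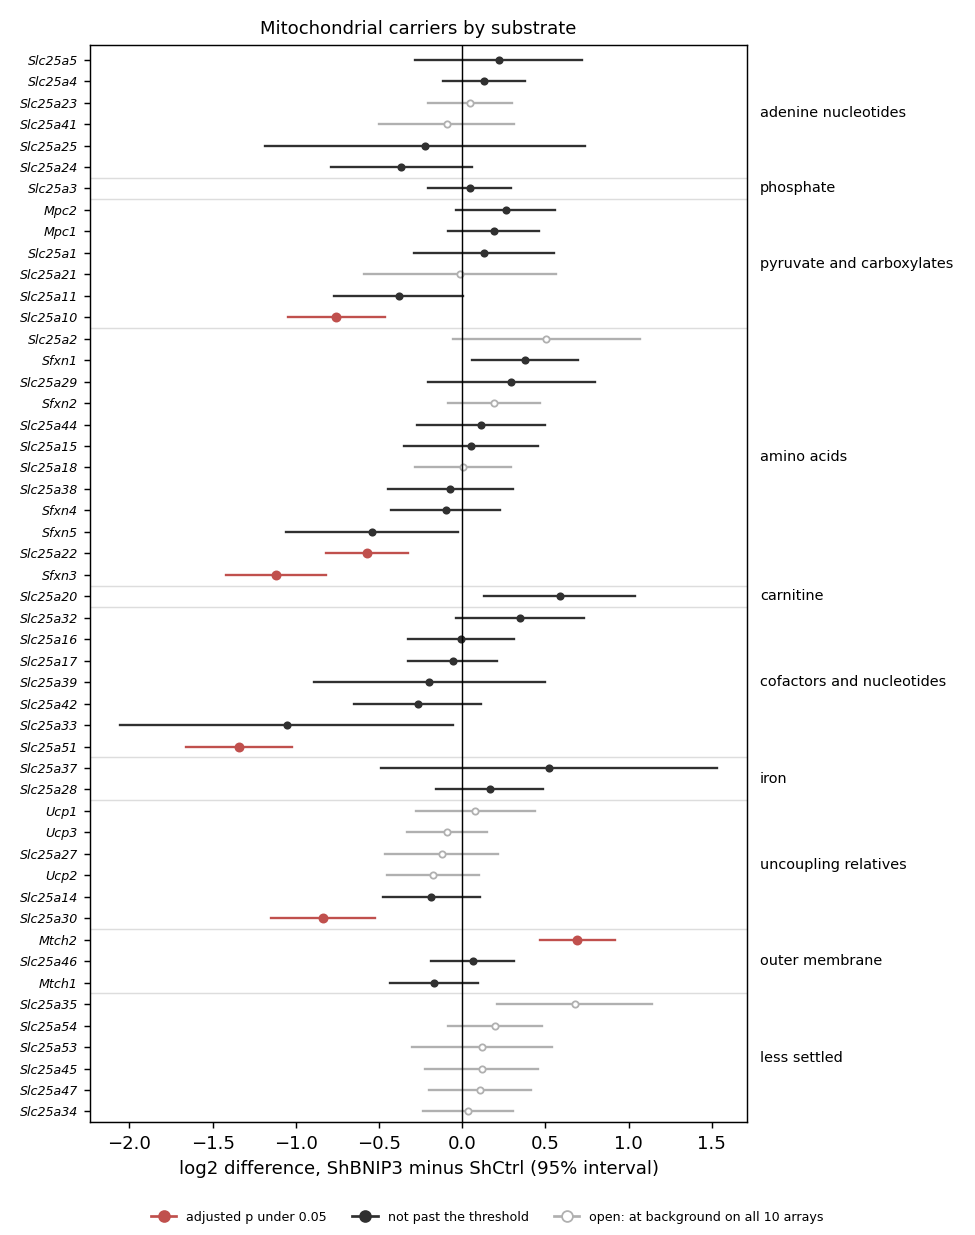
Log2 difference, ShBNIP3 minus ShCtrl, with its 95% interval for each of the 50 carriers and relatives, grouped by what they carry. Red points passed an adjusted p of 0.05 in limma, black points did not, and open points were at background on all 10 arrays. The 6 red intervals lie clear of 0, and most others cross it.

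Slc25a51 (Entrez Gene 313241), which brings NAD+ into the matrix in human cells, fell most among the carriers. Its log2 values were 10.25, 10.63, 10.66, 10.47 and 10.83 on ShBNIP3 arrays 6 to 10, against 11.94, 11.96, 12.08, 11.52 and 12.05 on ShCtrl arrays 1 to 5. The groups did not overlap, and the lowest ShCtrl value, on array 4, was still above the highest ShBNIP3 value, on array 10. The difference of -1.34 (SE 0.15, limma adjusted p = 6.87e-05) left 39.5% of the ShCtrl level, a fall of 2.53-fold.

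Sfxn3 (Entrez Gene 65042) belongs to the sideroflexins, inner membrane proteins of which SFXN1 is known in human cells as a serine transporter. It had 13.30, 13.30, 13.45, 13.64 and 13.85 on ShBNIP3 arrays 6 to 10, against 14.68, 14.58, 14.69, 14.36 and 14.80 on ShCtrl arrays 1 to 5. Again the groups stood apart, with arrays 10 and 4 nearest to each other. The log2 difference of -1.12 (SE 0.14, limma adjusted p = 0.000176) was a fall of 2.17-fold, to 46.0% of the ShCtrl level.

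Slc25a30 (Entrez Gene 361074), also called kidney mitochondrial carrier protein 1, is close in sequence to the uncoupling proteins. Its values were 8.66, 8.16, 8.84, 8.61 and 8.56 on ShBNIP3 arrays 6 to 10, against 9.14, 9.50, 9.35, 9.41 and 9.62 on ShCtrl arrays 1 to 5. With a log2 difference of -0.84 (SE 0.14, limma adjusted p = 0.00181) it fell 1.78-fold, and here arrays 4 and 10 lay within the range of the other arrays of their groups.

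Slc25a10 (Entrez Gene 170943) exchanges malate or succinate for phosphate. It had 8.38, 8.13, 8.59, 8.53 and 8.59 on ShBNIP3 arrays 6 to 10, against 9.07, 9.21, 9.30, 8.97 and 9.46 on ShCtrl arrays 1 to 5. All ShBNIP3 values were below all ShCtrl values, and the fall was 1.69-fold (log2 -0.76, SE 0.14, limma adjusted p = 0.00222).

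Slc25a22 (Entrez Gene 309111) carries glutamate together with a proton. It had 7.24, 7.18, 7.37, 7.18 and 7.10 on ShBNIP3 arrays 6 to 10, against 7.79, 7.98, 7.69, 7.60 and 7.88 on ShCtrl arrays 1 to 5. This was the smallest of the 5 falls, 1.49-fold (log2 -0.57, SE 0.11, limma adjusted p = 0.00432). Its values were the nearest of the 6 to the background limit, which lay between 6.50 and 6.78 on the 10 arrays.

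Mtch2 (Entrez Gene 295922) sits in the outer membrane, where in human cells it inserts tail-anchored proteins and in mouse cells binds the truncated death protein BID. It had 15.85, 15.84, 15.90, 15.91 and 15.74 on ShBNIP3 arrays 6 to 10, against 15.11, 14.98, 15.26, 15.17 and 15.25 on ShCtrl arrays 1 to 5. The spread within each group was small, 0.07 in ShBNIP3 and 0.11 in ShCtrl (SD, n = 5 each), and the log2 difference of 0.69 (SE 0.105, limma adjusted p = 0.000734) was a rise of 1.62-fold. Its paralog Mtch1 differed by -0.17 (95% interval -0.43 to 0.10, limma adjusted p = 0.438), and Slc25a46, another carrier-like protein of the outer membrane, by 0.06 (95% interval -0.18 to 0.31). These 6 genes were also the 6 of 50 whose groups did not overlap, where 12.9% of all probesets were separated in this way. All 6 passed in each of the 16 alternative fits tried, with a highest adjusted p of 0.0139 in limma.

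**Figure D2:**
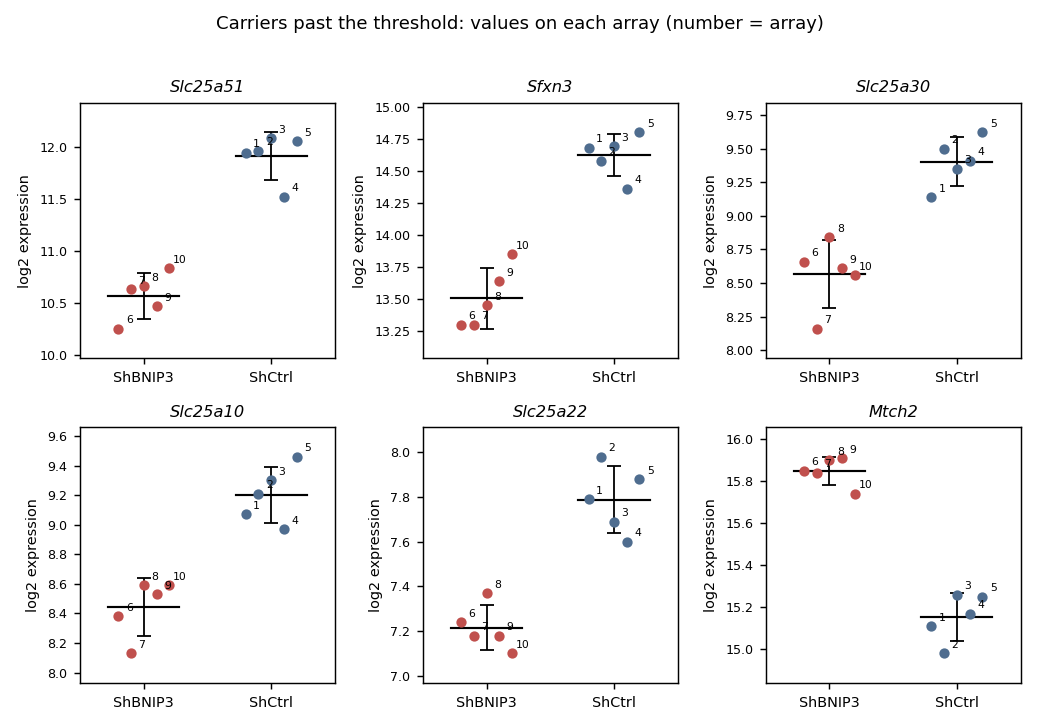
Log2 expression of the 6 carriers that passed the threshold, ShBNIP3 left and ShCtrl right, with 1 point per array, its array number beside it, and lines for the mean and SD (n = 5 each). In every panel the groups are separated, and only Mtch2 is higher in ShBNIP3.

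The stretches of genome just before these genes are shown because the genes moved in the same comparison while their upstream sequence can be read side by side. RefSeq (GRCr8) gave a promoter for 46 of the 50 members, Slc25a30 not among them. Each line holds the 250 bases that end at the base before the annotated start, on the strand of the gene, with capitals for any match on either strand to 4 motifs. These are the E-box CACGTG, bound by MYC and related factors, the cAMP response element TGACGTCA, the amino acid response element TGATGNAAT, bound by ATF4 with its partners, and the ETS motif CCGGAAG.
Slc25a51: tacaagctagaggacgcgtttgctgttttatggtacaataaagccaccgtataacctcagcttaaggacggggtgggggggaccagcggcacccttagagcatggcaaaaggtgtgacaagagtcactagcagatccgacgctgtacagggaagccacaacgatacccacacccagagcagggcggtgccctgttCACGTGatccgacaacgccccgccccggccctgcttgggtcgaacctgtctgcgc
Sfxn3: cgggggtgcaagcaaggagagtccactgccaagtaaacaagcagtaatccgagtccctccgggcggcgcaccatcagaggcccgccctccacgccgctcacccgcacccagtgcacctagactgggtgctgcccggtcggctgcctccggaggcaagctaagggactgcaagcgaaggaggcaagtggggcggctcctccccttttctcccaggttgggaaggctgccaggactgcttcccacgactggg
Slc25a10: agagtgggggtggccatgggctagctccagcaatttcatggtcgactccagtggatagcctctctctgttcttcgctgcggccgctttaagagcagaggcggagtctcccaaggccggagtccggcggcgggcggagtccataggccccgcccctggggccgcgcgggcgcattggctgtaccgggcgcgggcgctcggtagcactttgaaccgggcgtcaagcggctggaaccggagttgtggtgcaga
Slc25a22: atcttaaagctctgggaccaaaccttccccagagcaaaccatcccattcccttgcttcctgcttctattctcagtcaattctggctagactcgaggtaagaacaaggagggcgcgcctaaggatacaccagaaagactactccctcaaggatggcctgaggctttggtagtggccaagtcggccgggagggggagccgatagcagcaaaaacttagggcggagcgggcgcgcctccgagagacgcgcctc
Mtch2: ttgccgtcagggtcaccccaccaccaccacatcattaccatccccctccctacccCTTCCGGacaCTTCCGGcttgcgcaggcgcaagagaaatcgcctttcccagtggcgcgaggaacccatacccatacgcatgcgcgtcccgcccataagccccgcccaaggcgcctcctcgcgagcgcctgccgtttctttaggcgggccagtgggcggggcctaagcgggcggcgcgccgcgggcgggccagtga
The 5 regions are chr5:64459005-64459254 on the minus strand for Slc25a51, chr1:253857652-253857901 on the plus strand for Sfxn3, chr10:106264146-106264395 on the plus strand for Slc25a10, chr1:205965878-205966127 on the minus strand for Slc25a22 and chr3:97286138-97286387 on the plus strand for Mtch2. Slc25a51 holds 1 E-box, with its first base 55 bases before the start. Mtch2 holds the ETS motif on the opposite strand (CTTCCGG as printed) in 2 places, 195 and 185 bases before the start. In none of the 5 did 2 motifs overlap. The windows of Sfxn3, Slc25a10 and Slc25a22 hold none of the 4 letter strings. Among all 46 members with a promoter, the E-box was present in 5 (10.9%, against 5.59% of 33469 RefSeq promoters) and the ETS motif in 9 (19.6%, against 7.27%). The cAMP response element was in 2 (4.35%, against 1.59%) and the amino acid response element in 0 (against 0.944%). These shares were compared without matching for base composition. The median share of G and C bases was 51.2% over all RefSeq promoters, against between 56.8% and 68.4% in the 5 windows shown. The part of base composition in the motif shares was not tested. A match is a description of letters and not a site of binding.

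The carriers of adenine nucleotides and phosphate, which feed ATP synthase, gave no call. Slc25a4 (ANT1) exchanges ADP for ATP, and had 17.10, 17.20, 17.22, 17.05 and 16.81 on ShBNIP3 arrays 6 to 10, against 16.97, 16.99, 16.98, 16.79 and 16.99 on ShCtrl arrays 1 to 5. The groups overlapped, with a difference of 0.13 (95% interval -0.12 to 0.38, limma adjusted p = 0.535). Its paralog Slc25a5 (ANT2) had 14.81, 14.74, 15.12, 14.80 and 14.02 in ShBNIP3, against 14.35, 14.40, 14.94, 13.86 and 14.85 in ShCtrl. That difference was 0.22 (95% interval -0.28 to 0.72, limma adjusted p = 0.626), and arrays 10 and 4 held the lowest value of their groups. The phosphate carrier Slc25a3, which also supplies copper to cytochrome oxidase, averaged 13.7 ± 0.15 in ShBNIP3 and 13.6 ± 0.11 in ShCtrl (SD, n = 5 each). Its interval was narrow, -0.20 to 0.29 around 0.05 (limma adjusted p = 0.862), so a change of 1.5-fold lay outside it. Of the carriers of ATP-Mg, Slc25a24 differed by -0.37 and Slc25a25 by -0.23, neither past the threshold, and Slc25a23 and Slc25a41 were at background on all 10 arrays.

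Among the carriers of pyruvate and other carboxylates, 1 of 6 fell, Slc25a10. The subunits of the pyruvate carrier, which form it as a pair, were both slightly higher on average without passing. Mpc1 had 12.04, 12.04, 11.76, 11.92 and 12.27 in ShBNIP3, against 11.74, 11.99, 11.83, 11.91 and 11.61 in ShCtrl (difference 0.19, 95% interval -0.08 to 0.46, limma adjusted p = 0.389). Mpc2 had 10.68, 10.90, 10.51, 10.57 and 11.12 in ShBNIP3, against 10.48, 10.55, 10.64, 10.29 and 10.50 in ShCtrl (difference 0.26, 95% interval -0.04 to 0.56, limma adjusted p = 0.254). Both groups overlapped for each gene. The citrate carrier Slc25a1, which exports citrate for fatty acid synthesis, had 11.00, 10.78, 10.64, 10.94 and 10.62 in ShBNIP3, against 10.87, 10.93, 10.77, 9.88 and 10.90 in ShCtrl. Its difference of 0.13 (95% interval -0.29 to 0.55, limma adjusted p = 0.751) was -0.02 without arrays 4 and 10, neither past the threshold. The 2-oxoglutarate carrier Slc25a11 differed by -0.38 (95% interval -0.77 to 0.01), and the oxodicarboxylate carrier Slc25a21 was at background on all 10 arrays.

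Among 12 carriers of amino acids and sideroflexins, 2 fell (Slc25a22 and Sfxn3) and 0 rose. Sfxn1, the serine transporter, was higher on average without passing. It had 14.07, 14.09, 14.01, 14.31 and 13.64 in ShBNIP3, against 13.63, 13.84, 13.60, 13.33 and 13.82 in ShCtrl (difference 0.38, 95% interval 0.06 to 0.70, limma adjusted p = 0.111). Only array 10 of the ShBNIP3 arrays lay within the ShCtrl range. Sfxn5 differed by -0.54 (limma adjusted p = 0.165), but it was at background on all 5 ShBNIP3 arrays and on 2 ShCtrl arrays, so no fold is given. The branched-chain amino acid carrier Slc25a44, the glycine carrier Slc25a38, the ornithine carrier Slc25a15, the basic amino acid carrier Slc25a29 and Sfxn4 differed by between -0.10 and 0.30, none past the threshold, and Slc25a15, Slc25a29 and Sfxn4 were at background on 6, 9 and 7 of the 10 arrays. Slc25a2, Slc25a18 and Sfxn2 were at background on all 10 arrays.

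Slc25a20, the carnitine and acylcarnitine carrier that takes fatty acids into the matrix, averaged 10.1 ± 0.17 in ShBNIP3 and 9.52 ± 0.50 in ShCtrl (SD, n = 5 each). Its ShBNIP3 values were 10.08, 9.97, 10.23, 10.32 and 9.92, against 9.50, 9.33, 9.82, 8.81 and 10.13 in ShCtrl. Array 5 of ShCtrl lay among the ShBNIP3 values. The difference of 0.59 missed the threshold (limma adjusted p = 0.0825), and it passed in 1 of the 10 fits that each dropped a single array, the one without ShCtrl array 5 (0.74, limma adjusted p = 0.0256). Without ShCtrl array 4 it was 0.41 (limma adjusted p = 0.126), and without arrays 4 and 10 together 0.46 (limma adjusted p = 0.0891).

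Of 7 carriers of cofactors and nucleotides, 1 fell (Slc25a51). The peroxisomal carrier Slc25a17 and the coenzyme A carriers Slc25a16 and Slc25a42 differed by -0.06, -0.01 and -0.27 on the log2 scale, none past the threshold. The 6 uncoupling proteins and their relatives split by detection. Ucp1, Ucp2, Ucp3 and Slc25a27 (UCP4) were at background on all 10 arrays. Ucp2, which many cultured cells express, lay between 3.99 and 4.20 on ShBNIP3 arrays and between 3.92 and 4.46 on ShCtrl arrays. Slc25a14 (UCP5) differed by -0.18 (95% interval -0.47 to 0.11, limma adjusted p = 0.438). All 6 members with a less settled substrate (Slc25a34, Slc25a35, Slc25a45, Slc25a47, Slc25a53 and Slc25a54) were at background throughout. Of these, Slc25a45 differed by 0.12 (limma adjusted p = 0.716) and Slc25a35, the member closest to the threshold without passing, by 0.68 (limma adjusted p = 0.0523). In all, 16 of the 50 members were at background on all 10 arrays, 7 on some and 27 on none.

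For several carriers, ShCtrl array 4 stood far from the other 4 ShCtrl arrays. Slc25a33 carries pyrimidine nucleotides into the matrix. It had 7.38, 7.03, 7.12, 7.80 and 6.78 on ShBNIP3 arrays 6 to 10, against 8.91, 8.98, 8.69, 6.11 and 8.69 on ShCtrl arrays 1 to 5. On array 4 it was at background and below every ShBNIP3 array, while the other 4 ShCtrl arrays stood above all of them. With all arrays the difference was -1.05 (SE 0.46, limma adjusted p = 0.163), and without ShCtrl array 4 it was -1.59 (limma adjusted p = 0.00010). The gene is shown because array 4 stood apart, so the p-value without that array is descriptive and not a test.

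The mitoferrin Slc25a37, which imports iron, showed the reverse. It had 9.34, 9.52, 9.94, 9.87 and 10.88 on ShBNIP3 arrays 6 to 10, against 8.93, 8.88, 8.81, 11.42 and 8.90 on ShCtrl arrays 1 to 5. The 4 other ShCtrl values were nearly equal, and array 4 exceeded every ShBNIP3 value. The difference was 0.52 (SE 0.47, limma adjusted p = 0.547) with all arrays and 1.03 (limma adjusted p = 0.0133) without array 4. Here too the p-value without array 4 is descriptive, since that array is why the gene is shown. The other mitoferrin, Slc25a28, differed by 0.17 (95% interval -0.16 to 0.49, limma adjusted p = 0.551).

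Array 4 also stood apart for Slc25a25 and for the glutathione carrier Slc25a39. Slc25a25 read 8.87 on it and between 5.96 and 6.71 on the other ShCtrl arrays, and Slc25a39 read 11.56 on it and between 12.97 and 13.36 on the others. Both genes leaned the same way on ShBNIP3 array 10, with 7.31 for Slc25a25 and 11.94 for Slc25a39. Of 34 members above background on at least 1 array, 4 lay more than 1 log2 unit from the mean of the other 4 ShCtrl arrays on array 4 (Slc25a25, Slc25a33, Slc25a37 and Slc25a39). On ShBNIP3 array 10, 2 did (Slc25a29 and Slc25a37), on ShCtrl array 2, 1 did (Slc25a25), and on each of the other 7 arrays 0 did. Among all probesets above background on at least 1 array, 10.7% lay that far off on array 4 and 7.55% on array 10, and between 0.663% and 1.71% on each of the others.

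**Figure D3:**
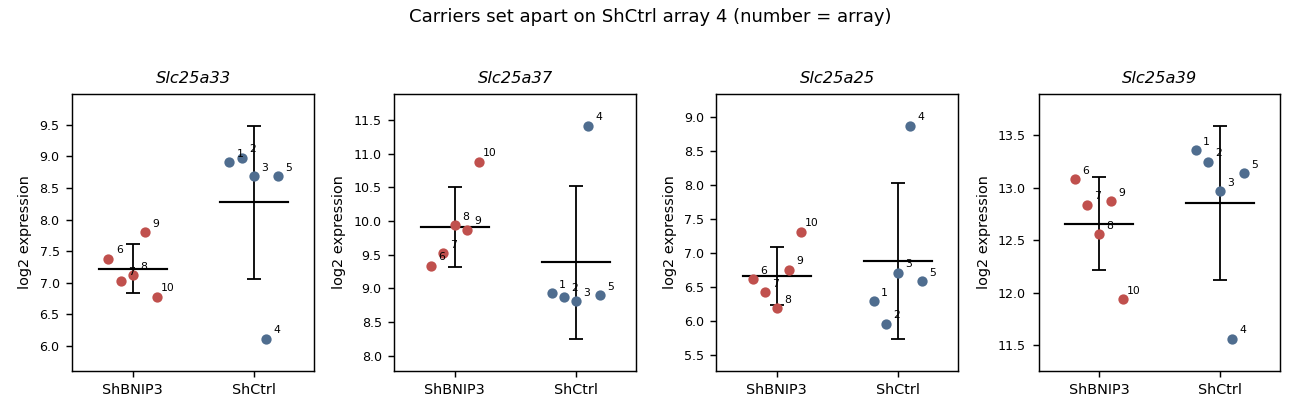
Log2 expression of the 4 carriers that lay more than 1 log2 unit from the rest of their group on ShCtrl array 4, ShBNIP3 left and ShCtrl right, with array numbers beside the points and lines for the mean and SD (n = 5 each). Array 4 lies outside the other ShCtrl values in all 4 panels, and array 10 leans the same way in each.

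Without ShCtrl array 4 and ShBNIP3 array 10, 11 of the 50 members passed, 4 up and 7 down, and 19.9% of all probesets did (9.84% up and 10.1% down). The 6 members called with all arrays were among these. The 5 others, named after their values were seen, were Slc25a33 (log2 -1.48, limma adjusted p = 8.17e-05), Slc25a37 (log2 0.79, limma adjusted p = 0.00259), the folate carrier Slc25a32 (log2 0.54, limma adjusted p = 0.0134), Sfxn1 (log2 0.40, limma adjusted p = 0.0417) and Slc25a11 (log2 -0.36, limma adjusted p = 0.0498). Slc25a51 and Sfxn3 fell further in this fit, by 1.50 and 1.27 on the log2 scale. Arrays 4 and 10 were chosen for it with earlier results of these data known, so its adjusted p-values are descriptive.

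**Figure D4:**
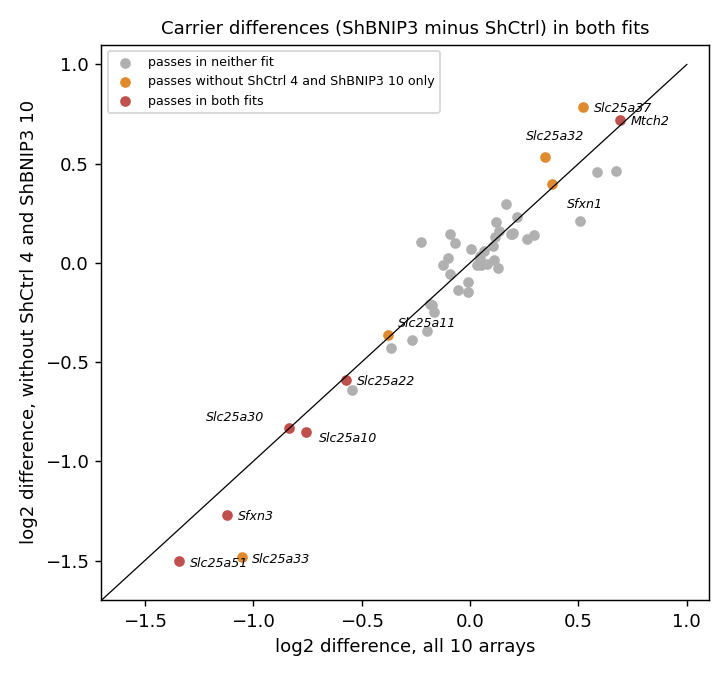
Log2 difference, ShBNIP3 minus ShCtrl, of each carrier with all 10 arrays (horizontal axis) and without ShCtrl array 4 and ShBNIP3 array 10 (vertical axis). The line marks equal values, and Slc25a33 and Slc25a37 lie farther from it than the 6 members that passed in both fits.

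The carriers work beside enzymes and channels that make, use or admit their substrates. Of 70 such genes listed, with earlier results of these data known, 60 were measured, and 9 rose and 11 fell, 33.3% of them, beside 15.5% of all probesets and 28.1% of those above background on at least 1 array. Of the 60, 55 were above background on at least 1 array, so the share is near that of like probesets. Without ShCtrl array 3, 13 of the 60 passed, 7 of these lower, where 12.6% of all probesets passed. Without ShCtrl array 5, 14 of the 60 passed, 7 of these lower, where 12.5% of all probesets did. The median log2 difference of the 60 with all arrays was 0.14. The shares of 15.5% and 28.1% also stand beside each count by group below.

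On the amino acid side, Bcat2, which transaminates branched-chain amino acids in the matrix, fell most. It had 8.34, 8.81, 8.47, 8.55 and 8.23 in ShBNIP3, against 10.44, 10.59, 10.32, 9.52 and 10.32 in ShCtrl, a fall of 3.38-fold (log2 -1.76, SE 0.19, limma adjusted p = 7e-05). Bckdhb, a subunit of the next enzyme of that pathway, rose 1.62-fold (limma adjusted p = 0.0116). Bckdha, another subunit of that enzyme, differed by -0.01 on the log2 scale (limma adjusted p = 0.980, named after its value was seen). In all, 4 of 12 amino acid and folate enzymes of the matrix fell and 2 rose, and 1 of the risen, Mthfd2l, was at background on all 10 arrays. With a single array dropped, the calls on Mthfd2 and Mthfd2l held in 4 of 10 fits each and that on Glud1 in 2 (these 3 named after their values were seen).

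Of 11 enzymes of the redox shuttles, lactate and citrate, 4 fell and 1 rose. Gpd2, the mitochondrial enzyme of the glycerophosphate shuttle, had 11.52, 11.90, 12.11, 12.18 and 12.10 in ShBNIP3, against 10.32, 10.70, 10.27, 11.25 and 10.37 in ShCtrl, a log2 difference of 1.38 (SE 0.20, limma adjusted p = 0.000483) or a rise of 2.60-fold. The transaminases of the malate-aspartate shuttle both fell, Got2 of the matrix 1.68-fold (limma adjusted p = 0.00138) and Got1 of the cytosol 1.50-fold (limma adjusted p = 0.0142, named after its value was seen). Its malate dehydrogenases differed by 0.52 for Mdh2 and 0.30 for Mdh1 on the log2 scale, neither past the threshold and both named after their values were seen. Acly, which splits exported citrate, fell 2.02-fold, and the lactate dehydrogenase subunit Ldha 1.76-fold.

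Cpt1a, which makes the acylcarnitine that Slc25a20 carries, had 10.98, 11.20, 11.35, 11.39 and 12.00 in ShBNIP3, against 10.33, 10.48, 9.27, 8.26 and 9.95 in ShCtrl. The log2 difference of 1.73 (SE 0.36, limma adjusted p = 0.00604) was a rise of 3.31-fold, and Cpt1a was the 1 of 5 carnitine enzymes that passed. Array 4 held the lowest ShCtrl value and array 10 the highest ShBNIP3 value. Without these arrays the log2 difference of Cpt1a was smaller, 1.22 (limma adjusted p = 0.00259). The matrix adenylate kinase Ak3 fell 2.05-fold, the 1 of 5 adenylate and creatine kinase genes that passed. Ak4 of the same group, named after its value was seen, differed by 0.72 (limma adjusted p = 0.327). It had 11.97 on ShCtrl array 4 and between 9.20 and 9.51 on the other ShCtrl arrays. Without arrays 4 and 10 the difference of Ak4 was 1.18 (limma adjusted p = 0.000149). Array 4 stood apart for this gene, so that p-value is descriptive. Of 7 genes of iron-sulphur and haem assembly 2 rose, among them the haem synthesis enzyme Cpox (1.69-fold).

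Of 13 channels and import factors, 2 rose and 0 fell. That is 15.4% of them, beside 15.5% of all probesets and 28.1% of those above background on at least 1 array. Both that rose are small chaperones that guide inner membrane proteins across the space between the membranes. Timm8b rose 1.63-fold (SE of the log2 difference 0.12, limma adjusted p = 0.00127), and Timm10, which is known to escort carriers, 1.40-fold (limma adjusted p = 0.0252, named after its value was seen). The call on Timm10 held in 6 of the 10 fits that each dropped a single array. Other small chaperones of this kind, named after their values were seen, did not pass. On the log2 scale Timm9 differed by 0.34, Timm8a1 by 0.20, Timm10b by -0.15 and Timm13 by -0.16. Of 7 cofactor and glutathione enzymes 1 rose (Prdx3) and 2 fell (Gsr and Dcakd), named after their values were seen. The calls on Prdx3 and Gsr held in 2 of those 10 fits each, and that on Dcakd in 8.

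**Figure D5:**
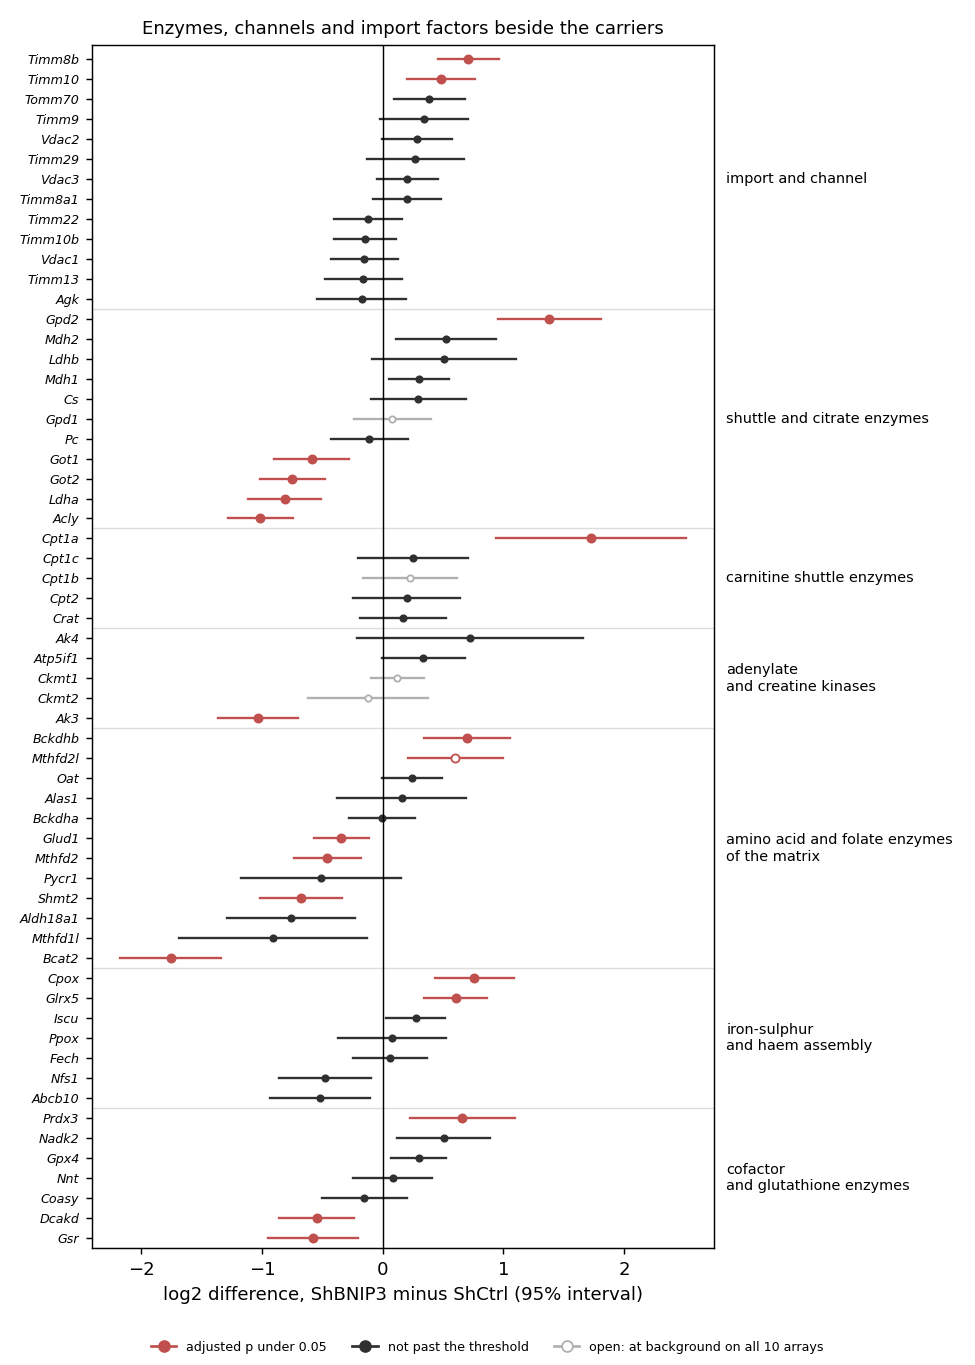
Log2 difference, ShBNIP3 minus ShCtrl, with its 95% interval for the 60 measured genes that act beside the carriers, grouped by role. Red marks an adjusted p under 0.05 in limma, and open points were at background on all 10 arrays. Cpt1a and Gpd2 lie farthest to the right and Bcat2 farthest to the left.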

How the data were processed

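Cells of 5 ShBNIP3 and 5 ShCtrl samples were hybridised to 1 array each, with GeneChip WT Plus labelling per the labels' protocols. The authors deposited log2 expression values normalized with sst-rma, per the labels, and used the Transcriptome Analysis Console, per the submitters' processing notes. The genome build is not given in the sources used here. The extraction text also speaks of mouse tissue, which matches neither organism nor treatment, and was not used. Groups came from the titles.

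The 1646 control probesets of 24834 were left out. Medians of the tested probesets lay between 6.18 and 6.22 on all arrays. ShBNIP3 minus ShCtrl was fitted with limma 3.58.1 (lmFit, eBayes; R 4.3.3) over 23188 probesets, with Benjamini-Hochberg adjustment at 0.05, and checked on simulated data. A value was at background under the 95th percentile of the 23 antigenomic probesets of its array. The number of arrays limits the precision. All 50 member symbols matched RefSeq (GRCr8) by Entrez identifier, and 0 members shared their values with another probeset.

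Named were Bnip3, all members that passed, Slc25a1, Slc25a3, Slc25a4, Slc25a5, Mpc1, Mpc2 and Ucp2, in a group with no call the member with the highest mean, and of the neighbouring enzymes the 10 that passed with the largest differences. Members, lists and alternatives were chosen with earlier results of these data known. Alternatives left out each array, arrays 4 and 10 together, or changed normalization, variance model, array weights, the filter on dim probesets or the probesets counted.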

Additional observations from a re-analysis of the deposited data

Results flagged for a closer look

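Of 66 groups of 5 values (34 members above background on at least 1 array, leaving out groups at background throughout), 10 held an array whose gap to its nearest neighbour was more than 0.71 of the group's range, Dixon's limit for 5 values. Chance flags about 1 in 20 such groups. Array 4 of ShCtrl was the array in 9 of the 10, and ShBNIP3 array 10 in the other.

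On ShCtrl array 4 the values were low for Slc25a1 (9.88, others 10.77 to 10.93), Slc25a16 (8.98, others 9.48 to 9.63), Slc25a33 (6.11, others 8.69 to 8.98), Slc25a39 (11.56, others 12.97 to 13.36), Slc25a4 (16.79, others 16.97 to 16.99) and Slc25a51 (11.52, others 11.94 to 12.08). They were high there for Slc25a25 (8.87, others 5.96 to 6.71), Slc25a32 (9.82, others 8.88 to 9.12) and Slc25a37 (11.42, others 8.81 to 8.93). On ShBNIP3 array 10, Slc25a11 was low (11.41, others 12.01 to 12.22).

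Of these genes Slc25a51 passed the threshold with all arrays. Array 4 lay towards the ShBNIP3 values there, and without it and array 10 the log2 difference was -1.50 in place of -1.34. Array 4 also had the highest Bnip3 value of its group, 15.97, against 13.94 to 14.54 on the other ShCtrl arrays. The cause of the offset of array 4 was not tested.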

How the results depend on the processing

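The 6 members that passed kept their direction and side of the threshold in all 16 fits that left out arrays or changed normalization, variance, weights or filter, with a highest limma adjusted p of 0.0139. With 1 array left out, the members called ranged from 6 to 10 (1 to 3 higher), those changed at least 2-fold from 2 to 4, the neighbouring enzymes called from 13 to 23, and those lower from 7 to 13. In these fits between 11.8% (without ShBNIP3 array 8) and 17.1% (without ShCtrl array 4) of all probesets passed. The highest member counts, 10, 3 and 4, came without ShCtrl array 4. Without it and ShBNIP3 array 10 together, 11 members passed, 4 of them higher, and 19.9% of all probesets did. Array weights gave 2 higher (with Slc25a32), and a trended and robust variance 2 (with Slc25a35, at background throughout). Of all probesets, 19.8% passed with array weights and 15.7% with the trended and robust variance. Why these counts moved was not tested. The median log2 difference of the members lay between -0.06 (among the brighter 50% of probesets) and 0.05. Counting all member probesets changed nothing, since each gene has 1. Among the brighter 50% of probesets, 33 members were left and the same 6 passed, where 33.7% of those 11594 probesets did. Of the members followed through every alternative, Slc25a1 alone changed sign, in no fit past the threshold, to -0.07 without ShCtrl array 4 and -0.02 without arrays 4 and 10, in place of 0.13. No paired analysis was done because the labels do not say whether any ShBNIP3 array is paired with a ShCtrl array. Members near or under the background limit can hide changes.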
